A study of Mus musculus with 12 samples.

Results

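Osteoblast commitment in the limb was followed through 7 genes: Runx2, Sp7, Alpl, Dlx5, Dlx6, Msx2 and Twist1. They were chosen by symbol, and all 7 of 7 were found among the 51826 Ensembl genes of the forelimb table. All 7 also passed the filter on low counts that left 19987 genes for testing. RNA was sequenced from mouse forelimbs at embryonic day E12.5 in 2 genotypes with 2 libraries each. Wild type (WT) limbs were compared with limbs labelled Impdh2 Prx-cKO, a conditional knockout of Impdh2, which encodes an enzyme of guanine nucleotide synthesis. Prx drivers are generally used to delete genes in limb mesenchymal progenitors, so that limb ectoderm, muscle and vessels keep the gene. The labels give no strain, no Cre or floxed allele by name, and do not say whether limbs were pooled or came from separate embryos. Each genotype held a library with female-type and a library with male-type counts of Xist and Ddx3y, so its libraries were not repeats of a single embryo's RNA. The p-values set the difference between genotypes against the spread between these libraries. Within each genotype that spread also holds any difference between the sexes. The series also holds 8 culture libraries, of WT and LysM-cKO genotype and titled R40D3 or R0D3, which were read apart from the limbs.

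Limb bones arise from mesenchyme that first forms cartilage, and osteoblasts then appear in the perichondrium around it. Runx2 is the transcription factor required to enter the osteoblast lineage, and Sp7 (osterix) acts after it. Alpl encodes tissue-nonspecific alkaline phosphatase, an enzyme that makes phosphate available for mineral. The homeobox factors Dlx5, Dlx6 and Msx2 act in early limb development and are also made in the apical ectodermal ridge, the signalling epithelium at the limb tip. Twist1 is a basic helix-loop-helix factor of early mesenchyme that restrains Runx2 activity.

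The 7 genes did not move as a block between the genotypes. Alpl was 1.93-fold higher in Prx-cKO and Dlx6 was at 47.9% of its WT level, whereas Runx2 and Sp7 stood at 93.6% and 86.6% of WT with libraries that overlapped between genotypes. Of the 7 members, 0 passed an adjusted p of 0.05 in the edgeR quasi-likelihood test, and 0 of all 19987 genes (0%) did. DESeq2 called 301 of the 20738 genes it tested (1.45%) and limma-voom called 0, with 0 members among them. An unadjusted p under 0.05 in edgeR was reached by 2 members, against 2096 of all genes (10.5%). These were Alpl, which was higher, as 5.87% of all genes were at that threshold, and Dlx6, which was lower, as 4.61% were.

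Both Prx-cKO libraries lay below both WT libraries for Dlx5 and Dlx6, a pattern shown by 21.0% of all genes tested. Both lay above for Alpl and Msx2, as 22.2% of genes did. The members' median log2 fold change was −0.09, beside −0.03 over all genes tested, and the range ran from −1.06 to 0.96. Removing WT replicate 1 gave a median of 0.20, WT replicate 2 gave −0.31, and Prx-cKO replicate 1 gave 0.15.

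The libraries held 28892215 to 69466572 counts, and Prx-cKO replicate 1 was the shallowest. Levels are given in CPM, counts scaled to the effective size of each library. Impdh2, the deleted gene, was at 260.4 and 272 CPM in the WT libraries and at 169.7 and 199 CPM in the Prx-cKO libraries, lower in both but still abundant. This log2 difference of −0.53 ± 0.16 (SE; adjusted p 0.443 by edgeR) was close to the median of the limb mesenchyme markers (−0.56). Scaling libraries by those markers moved the median of all genes up by 0.44 and put Impdh2 at −0.09 (unadjusted p 0.545 by edgeR). With the usual scaling Impdh2 was no lower than the median of the markers, which themselves ran from −1.17 to 0.64. The value of −0.09 follows from a shift that carries all genes. It cannot show whether the targeted gene was lost within the marked cells. Counts summed over a gene also do not show which exons remained. WT replicate 1 and Prx-cKO replicate 2 were the female-type libraries. Tbx5, which marks the forelimb, was present at 91.2 to 199 CPM in all 4 libraries.

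**Figure D1:**
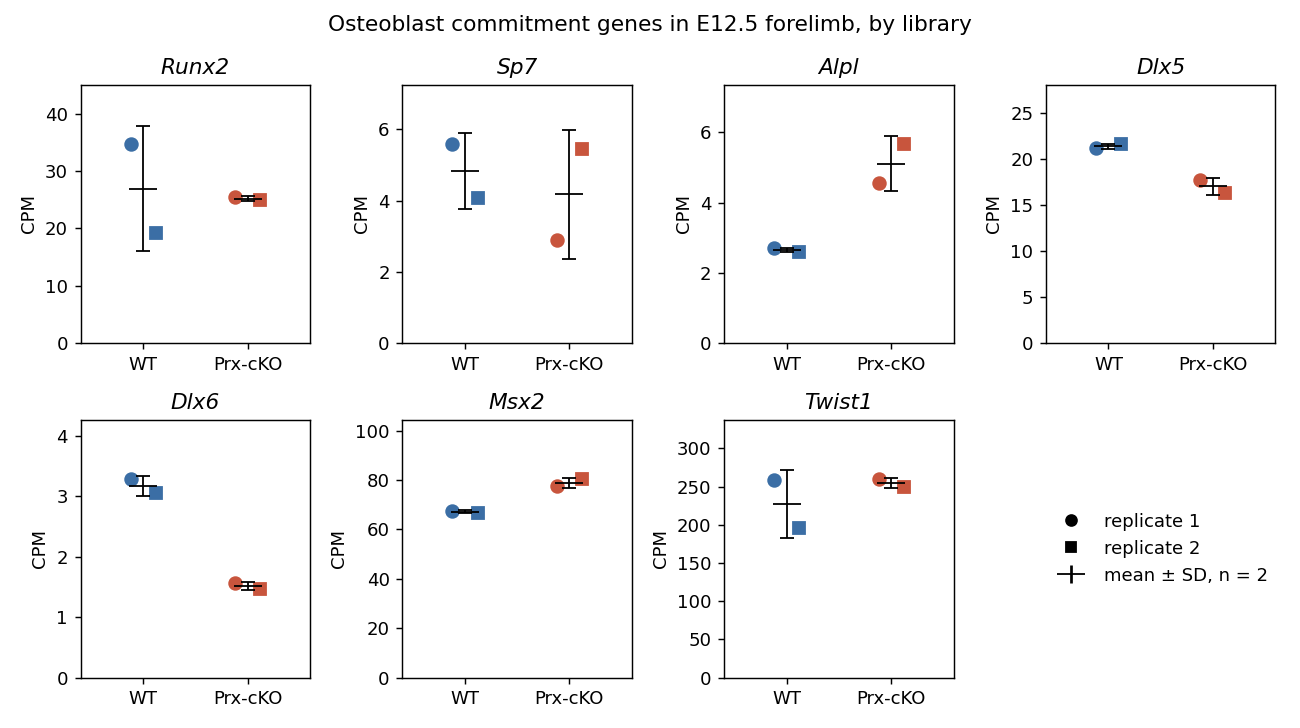
Level of each member in CPM (vertical axes, starting at 0) in the 4 forelimb libraries, with WT in blue, Prx-cKO in red, circles for replicate 1, squares for replicate 2, and bars for the mean ± SD of 2 libraries. Alpl and Msx2 sit above WT in both Prx-cKO libraries, Dlx5 and Dlx6 sit below it, and Runx2, Sp7 and Twist1 overlap.

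Runx2 (ENSMUSG00000039153) lies on chromosome 17, from 44495987 to 44814797 in GRCm38, minus strand. Its level was 34.6 and 19.2 CPM in WT replicates 1 and 2, against 25.5 and 24.9 CPM in Prx-cKO replicates 1 and 2. The Prx-cKO libraries were nearly equal and lay between the WT libraries, which differed from each other 1.81-fold. The means were 26.9 ± 10.9 and 25.2 ± 0.411 CPM (SD, n = 2). The log2 fold change was −0.09 ± 0.31 (SE), with an adjusted p of 0.936 in edgeR. Its sign depended on which WT library was kept, at 0.36 without WT replicate 1 and −0.45 without WT replicate 2. Within the female-type libraries the log2 ratio was −0.48, and within the male-type libraries it was 0.41.

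The gap between the WT libraries was wider for Runx2 than for most genes. On the log2 CPM scale (prior count 2) it was 0.85, and 9.24% of the 12109 genes averaging 5 CPM or more had a gap as wide. The Prx-cKO libraries differed by 0.03, and 90.8% of those genes had a gap at least that wide. An antisense gene, Runx2os1, shares 519 exonic bases with Runx2, and the use of strand in counting is not given in the sources used here. It held 5 and 19 counts in the WT libraries and 7 and 23 in the Prx-cKO libraries, against 732 to 1466 for Runx2. Adding its counts left the Runx2 log2 fold change at −0.09.

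Sp7 (ENSMUSG00000060284) is on chromosome 15, from 102356606 to 102367182, minus strand. It reached 5.58 and 4.07 CPM in the WT libraries and 2.89 and 5.46 CPM in the Prx-cKO libraries. The Prx-cKO values were the lowest and the second highest of the 4, so the genotypes overlapped. The means were 4.82 ± 1.07 and 4.17 ± 1.82 CPM (SD, n = 2). The log2 fold change was −0.17 ± 0.41 (SE; edgeR adjusted p 0.91). The low library, Prx-cKO replicate 1, held 83 Sp7 counts. Without it the log2 fold change was 0.20, and without its Prx-cKO partner −0.73. Removing a WT library gave 0.03 (replicate 1) or −0.38 (replicate 2). The log2 ratio was −0.03 in the female-type libraries and −0.49 in the male-type libraries.

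Alpl (ENSMUSG00000028766), on chromosome 4 from 137741733 to 137796384, minus strand, was the member highest in Prx-cKO relative to WT. It measured 2.69 and 2.61 CPM in the WT libraries and 4.56 and 5.66 CPM in the Prx-cKO libraries. The WT libraries were close together and both Prx-cKO libraries stood clear of them. The means were 2.65 ± 0.0619 and 5.11 ± 0.778 CPM (SD, n = 2). The log2 fold change of 0.96 ± 0.31 (SE) had an unadjusted p of 0.0257 and did not pass adjustment (edgeR adjusted p 0.452). It stayed between 0.79 and 1.11 whichever library was left out. The log2 ratio was 1.07 in the female-type libraries and 0.81 in the male-type libraries. The gene rested on 114 to 289 counts per library.

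Alpl has more than 1 annotated start, and gene-level counts do not say which was used. The 250 bases upstream of its starts are shown because Alpl had the highest log2 fold change of the members, with the Twist1 window beside them as a member whose genotypes overlapped. Sequences are from the RefSeq promoter table on GRCm38.p6, 5′ to 3′ on the gene's strand. Capitals mark matches, on either strand, to TGTGGT (Runx), TAATTG or TAATTA (homeodomain cores), CANNTG (E-box, the class of site that Twist factors bind) or GGGCGG (GC box).
Alpl upstream start, chr4:137796385-137796634, minus strand: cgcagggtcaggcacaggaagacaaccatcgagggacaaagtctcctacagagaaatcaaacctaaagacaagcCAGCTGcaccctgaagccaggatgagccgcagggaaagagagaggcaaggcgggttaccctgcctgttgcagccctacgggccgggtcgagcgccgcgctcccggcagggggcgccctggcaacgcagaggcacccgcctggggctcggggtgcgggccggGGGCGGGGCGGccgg
Alpl downstream start, chr4:137766476-137766725, minus strand: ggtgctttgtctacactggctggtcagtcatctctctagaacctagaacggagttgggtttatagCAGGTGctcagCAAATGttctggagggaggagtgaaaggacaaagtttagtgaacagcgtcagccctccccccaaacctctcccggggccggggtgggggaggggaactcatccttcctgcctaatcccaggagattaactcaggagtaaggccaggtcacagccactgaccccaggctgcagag
Twist1, chr12:33957421-33957670, plus strand: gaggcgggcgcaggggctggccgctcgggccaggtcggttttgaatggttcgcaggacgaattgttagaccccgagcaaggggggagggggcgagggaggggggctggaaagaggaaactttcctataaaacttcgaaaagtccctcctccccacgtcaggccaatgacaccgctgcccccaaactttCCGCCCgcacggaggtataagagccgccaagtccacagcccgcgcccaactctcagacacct

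The upstream Alpl window held 2 GC boxes that share a base and 1 E-box, at 68.4% G or C with 20 CG dinucleotides. The downstream window held 2 E-boxes and no GC box, at 56.0% G or C with 4 CG dinucleotides. The Twist1 window held 1 GC box and no E-box. Among all 32851 windows of the same length, 32.7% held a GC box and 66.2% an E-box. RefSeq windows were found for 4 of the 7 members, 5 windows in all. The windows of Runx2 and Msx2 are not shown because 170 and all 250 of their 250 bases lie in annotated exons, so matches there are not all upstream of the gene. Of these the Runx letters TGTGGT, present in 14.0% of all windows, occurred only in that of Runx2 (1 match). A TAATTA core, in 4.84% of all windows, occurred only in that of Msx2 (1 match), and TAATTG, in 7.17%, in none of the 5. These matches describe letters and say nothing of binding. Sp7, Dlx5 and Dlx6 had no entry in the table.

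Dlx5 and Dlx6 are neighbours on chromosome 6 that face each other tail to tail, with 9236 bases between them. Dlx6 (ENSMUSG00000029754) runs from 6863334 to 6868568 on the plus strand and Dlx5 (ENSMUSG00000029755) from 6877805 to 6882085 on the minus strand. The level of Dlx5 was 21.2 and 21.6 CPM in the WT libraries and 17.7 and 16.3 CPM in the Prx-cKO libraries. Both Prx-cKO values lay below the tight WT pair. The means were 21.4 ± 0.284 and 17.0 ± 0.937 CPM (SD, n = 2). Prx-cKO over WT gave a log2 fold change of −0.33 ± 0.18 (SE), at an adjusted p of 0.579 in edgeR. Log2 ratios were −0.37 in the female-type and −0.29 in the male-type libraries.

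Dlx6 differed more than its neighbour. It measured 3.28 and 3.05 CPM in the WT libraries and 1.57 and 1.47 CPM in the Prx-cKO libraries. Libraries of a genotype lay close together and the genotypes did not overlap. The means were 3.17 ± 0.164 and 1.52 ± 0.0687 CPM (SD, n = 2). The log2 fold change of −1.06 ± 0.35 (SE) had an unadjusted p of 0.0269 and did not pass adjustment (edgeR adjusted p 0.456). It ranged from −1.11 to −1.01 when 1 library was left out, and the log2 ratios were −1.16 in the female-type and −0.96 in the male-type libraries. Dlx6 had fewer counts than its neighbour, 45 and 75 in the Prx-cKO libraries and 139 and 219 in the WT libraries.

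The share of Dlx6 among the counts of Dlx5 and Dlx6 does not depend on how libraries are scaled. It was 13.4% (exact 95% binomial interval 11.4 to 15.7) in WT replicate 1 and 12.4% (10.9 to 14.0) in WT replicate 2. It was 8.14% (5.997 to 10.7) in Prx-cKO replicate 1 and 8.24% (6.54 to 10.2) in Prx-cKO replicate 2. Both Prx-cKO shares were below both WT shares in these libraries, and the difference in share between genotypes was not tested. The upper bound of Prx-cKO replicate 1 lay just under the lower bound of WT replicate 2, and the intervals cover counting error only. The antisense gene Dlx6os1 had 0 counts in all 4 libraries, and Dlx6os2, which shares 104 exonic bases with Dlx6, held 0 to 5.

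Sp7 and Alpl were set against Runx2 in the same way. The share of Sp7 among Sp7 plus Runx2 counts was 13.9% and 17.5% in the WT libraries and 10.2% and 18.0% in the Prx-cKO libraries, so the genotypes overlapped. The share of Alpl among Alpl plus Runx2 counts was 7.22% and 12.0% in the WT libraries and 15.2% and 18.5% in the Prx-cKO libraries, above WT in both. The WT libraries differed in this share as they did in Runx2, while their Alpl levels were close.

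**Figure D2:**
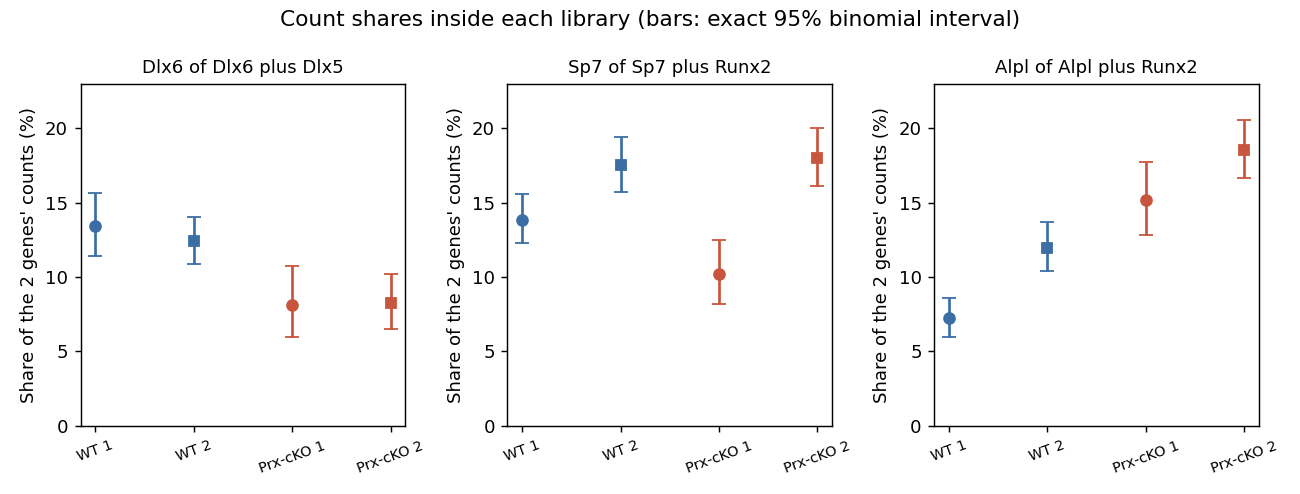
Share of 1 gene among the summed counts of 2 genes (vertical axes, percent) in each forelimb library, WT in blue and Prx-cKO in red, with exact 95% binomial intervals. The Dlx6 share is 12.4% and 13.4% in WT and 8.14% and 8.24% in Prx-cKO, the Sp7 share overlaps between genotypes, and the Alpl share is higher in both Prx-cKO libraries.

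Msx2 (ENSMUSG00000021469), on chromosome 13 from 53466884 to 53473074, minus strand, had 67.6 and 66.8 CPM in the WT libraries and 77.4 and 80.3 CPM in the Prx-cKO libraries. Its WT pair was the tightest of the 7 members, and both Prx-cKO libraries lay above it. Mean levels were 67.2 ± 0.569 and 78.9 ± 2.03 CPM (SD, n = 2). Prx-cKO stood at 117% of WT. In edgeR the log2 fold change was 0.23 ± 0.14 (SE; edgeR adjusted p 0.606). Log2 ratios were 0.25 in the female-type and 0.21 in the male-type libraries.

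Twist1 (ENSMUSG00000035799) is on chromosome 12, from 33957671 to 33959829, plus strand. Its level was 258 and 196 CPM in the WT libraries and 259.8 and 250.2 CPM in the Prx-cKO libraries. WT replicate 2 was low and the other 3 libraries lay together, with Prx-cKO replicate 2 below WT replicate 1. The means were 227 ± 44.1 and 255 ± 6.78 CPM (SD, n = 2). The log2 fold change was 0.17 ± 0.18 (SE; edgeR adjusted p 0.791). Without WT replicate 2 it was −0.01, and without WT replicate 1 it was 0.34. Log2 ratios were −0.05 in the female-type and 0.41 in the male-type libraries.

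Levels were compared between the members per kilobase of exon, on GENCODE M21 lengths. In WT, Twist1 led at 139.6 ± 27.1 CPM per kb, then Msx2 at 20.5 ± 0.174 and Dlx5 at 9.44 ± 0.126 (SD, n = 2). Runx2 followed at 3.04 ± 1.24, Sp7 at 1.42 ± 0.314, Dlx6 at 1.33 ± 0.0692 and Alpl at 0.657 ± 0.0154. Sp7 and Dlx6 overlapped, and every other pair of neighbours in this order was separated in both libraries. In Prx-cKO the first 4 places were the same, with Twist1 at 157 ± 4.16, Msx2 at 24.1 ± 0.619, Dlx5 at 7.52 ± 0.414 and Runx2 at 2.85 ± 0.0465 CPM per kb. The last 3 came in a different order, Alpl at 1.27 ± 0.193, Sp7 at 1.23 ± 0.536 and Dlx6 at 0.639 ± 0.0289, with Alpl and Sp7 overlapping. Alpl was thus the lowest member in WT and Dlx6 the lowest in Prx-cKO.

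**Figure D3:**
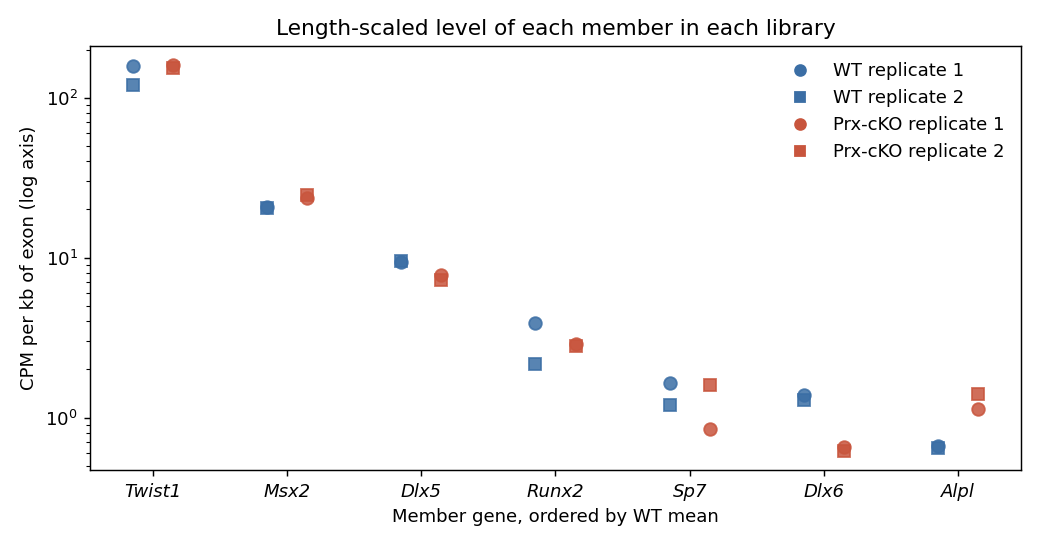
Level of each member in CPM per kb of exon (log axis) in each library, ordered by the WT mean, with WT in blue and Prx-cKO in red. Levels span from 0.618 (Dlx6 in Prx-cKO replicate 2) to 159.6 CPM per kb (Twist1 in Prx-cKO replicate 1), and the lowest place belongs to Alpl in WT and to Dlx6 in Prx-cKO.

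Other genes of the same regulatory circuit were taken from lists written from general knowledge. Of 16 partners and co-regulators of Runx2, 0 passed adjustment in edgeR or DESeq2. An unadjusted p under 0.05 in edgeR was reached by 2, both lower, as 4.61% of all genes were. Runx3, a paralog of Runx2, had 3.19 and 3.48 CPM in the WT libraries and 1.81 and 1.39 CPM in the Prx-cKO libraries, a log2 difference of −1.09 ± 0.36 (SE; adjusted p 0.457 by edgeR). Zfp521, a zinc finger antagonist of Runx2, had 97.1 and 131 CPM in the WT libraries and 75.9 and 78.7 CPM in the Prx-cKO libraries. Cbfb, the shared partner of the Runx factors, had 169 and 153 CPM in the WT libraries and 130.4 and 139 CPM in the Prx-cKO libraries. Both genes were thus lower in both Prx-cKO libraries, with log2 fold changes of −0.56 ± 0.19 and −0.25 ± 0.15 (SE). Of the 16, 8 lay below WT in both Prx-cKO libraries, as 21.0% of all genes did. Above WT in both lay 2 of them, as 22.2% of all genes did. The list had 12 members below 0 and 4 above, with a median of −0.26, which was −0.07 without WT replicate 2.

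Of the 7 other Dlx and Msx genes, 5 could be tested and 0 had an unadjusted p under 0.05, while Msx3 and Dlx6os1 had no counts. Their log2 fold changes ran from −0.22 to 0.40 with a median of 0.05, so none of the 5 was as low as Dlx6. Removing Prx-cKO replicate 2 gave a median of 0.25, Prx-cKO replicate 1 gave 0.16, and WT replicate 2 gave 0.15.

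Of the 10 partners of Twist1 and Id inhibitors, 3 had an unadjusted p under 0.05 in edgeR, all lower, as 4.61% of all genes were. In edgeR 0 passed adjustment, and in DESeq2 1 (Id4) did, as 1.45% of all genes it tested did. Id4, an inhibitor of basic helix-loop-helix factors, had 11.7 and 11.3 CPM in the WT libraries and 3.20 and 3.13 CPM in the Prx-cKO libraries, a log2 difference of −1.86 ± 0.25 (SE; adjusted p 0.332 by edgeR). Hand2, a factor of the posterior limb bud that can pair with Twist1, had 165 and 154 CPM in the WT libraries and 101 and 114 CPM in the Prx-cKO libraries. Hand1 had 2.01 and 2.44 CPM in the WT libraries and 0.939 and 0.352 CPM in the Prx-cKO libraries. All 3 genes were lower in both Prx-cKO libraries, as 21.0% of all genes were, whereas Id1, Id2 and Id3 overlapped between genotypes. Of the list, 1 gene lay above WT in both Prx-cKO libraries, as 22.2% of all genes did. The median of the list was −0.03, and removing a library gave −0.21 (WT replicate 1), −0.06 (WT replicate 2), −0.07 (Prx-cKO replicate 1) or −0.12 (Prx-cKO replicate 2).

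Of 18 matrix and mineralisation genes, 14 passed the filter and 0 had an unadjusted p under 0.05. Their median log2 fold change was −0.07, and it was 0.02 to 0.09 when any 1 library was left out. Bglap, which encodes osteocalcin, had 0.874 and 0.334 CPM in the WT libraries and 0.974 and 0.235 CPM in the Prx-cKO libraries. Ibsp and Mepe, which encode bone matrix proteins, had 0 counts in every library. A count of 0 allows up to 3 counts, or 0.0418 to 0.104 CPM depending on the library, for counting error only. Col1a1, the main bone collagen, which fibroblasts make as well, had 198 and 191 CPM in the WT libraries and 177 and 149 CPM in the Prx-cKO libraries, with a log2 fold change of −0.25 ± 0.16 (SE). Other bone genes of the list were present at low levels, with WT means of 4.59 CPM for Phex, 2.53 CPM for Ifitm5 and 2.19 CPM for Spp1. Per kb of exon, Ifitm5 was at 4.54 and 2.08 in the WT libraries and Runx2 at 3.92 and 2.17, so these overlapped. Bglap was at 1.41 and 0.541 per kb and Alpl at 0.668 and 0.646, which overlapped as well. Bglap rested on 37 and 24 counts there.

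The cartilage programme, the alternative fate of the same progenitors, gave a different picture in the same libraries. All 8 of its listed genes lay below WT in both Prx-cKO libraries, as 21.0% of all genes did, and had an unadjusted p under 0.05 in edgeR, as 4.61% of all genes did on the lower side. Their median log2 fold change was −1.58. After adjustment 0 of the 8 passed in edgeR and 8 of 8 in DESeq2, which called 1.45% of the genes it tested. Sox9, which commits progenitors to cartilage, had 109 and 136 CPM in the WT libraries and 49.6 and 42.9 CPM in the Prx-cKO libraries. The log2 difference was −1.40 ± 0.18 (SE; adjusted p 0.319 by edgeR). Dlx6, the lowest osteoblast member at −1.06, was above all 8 cartilage genes, which ran from −4.25 (Acan) to −1.39 (Col2a1). The difference between the lists was not tested.

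**Figure D4:**
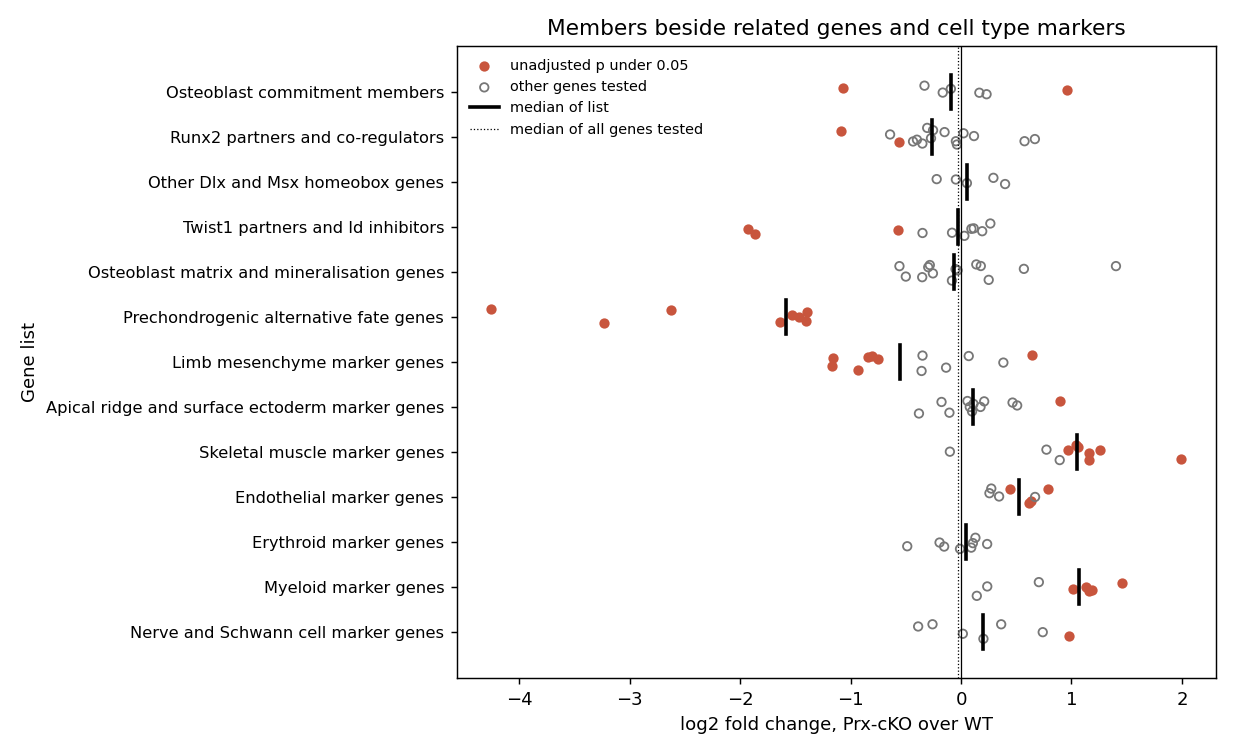
Log2 fold change of Prx-cKO over WT (horizontal axis) for each tested gene of each list, with filled points for an unadjusted p under 0.05, a thick line for each list's median and a dotted line for the median of all genes tested (−0.03). The osteoblast members scatter on both sides of 0 with a median of −0.09, whereas all 8 cartilage genes lie at −1.39 or lower.

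Markers of the cells in the limb differed between genotypes, and in bulk tissue fewer cells of a type cannot be told apart from less RNA per cell. The 12 limb mesenchyme markers had a median of −0.56 in log2 fold change (−0.81 to −0.39 with a library removed). At an unadjusted p under 0.05 in edgeR, 6 of them were lower and 1 higher. After adjustment 0 of the 12 passed in edgeR and 4 in DESeq2, as 1.45% of all genes it tested did. Their summed level was 2284 and 2520 CPM in the WT libraries and 1702 and 1771 CPM in the Prx-cKO libraries. Prrx1 had 304 and 397 CPM in the WT libraries and 175 and 216 CPM in the Prx-cKO libraries. Hoxd10, Lhx9, Tbx5 and Pdgfra also lay below WT in both. Of the 12, 7 lay below in both, as 21.0% of all genes did, and 2, Meis1 and Meis2, lay above, as 22.2% did. Meis1, the 1 higher, had 40.0 and 26.7 CPM in the WT libraries and 51.4 and 52.5 CPM in the Prx-cKO libraries. Prrx2, Twist2 and Col3a1 overlapped. At an unadjusted p under 0.05 in edgeR, 4.61% of all genes were lower and 5.87% higher. The 12 apical ridge and surface ectoderm markers had a median of 0.11, with 1 higher at an unadjusted p under 0.05, and summed levels of 729 and 886 CPM in the WT libraries and 888 and 959.8 CPM in the Prx-cKO libraries. That gene was Fgf8, the ridge signal, with 14.1 and 13.1 CPM in the WT libraries and 23.8 and 26.6 CPM in the Prx-cKO libraries. Since Dlx5, Dlx6 and Msx2 are also ridge genes, their levels can draw on both compartments, and the part of each was not tested.

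Muscle, endothelial and myeloid markers had medians above 0. In edgeR 0 of them passed adjustment. In DESeq2 2 muscle, 0 endothelial and 3 myeloid genes did, as 1.45% of all genes it tested did. Median log2 fold changes were 1.05 for 10 skeletal muscle, 0.53 for 8 endothelial and 1.07 for 8 myeloid genes. At an unadjusted p under 0.05 in edgeR, 7, 4 and 5 of these were higher, as 5.87% of all genes were. The muscle median was 0.57 without Prx-cKO replicate 1. Medians were 0.04 for 8 erythroid and 0.20 for 7 nerve and Schwann cell genes. The nerve median was −0.11 without WT replicate 2. Summed muscle levels were 373 and 367 CPM in the WT libraries and 1013 and 487 CPM in the Prx-cKO libraries. Summed endothelial levels were 183 and 171 against 253 and 248 CPM, and summed myeloid levels were 40.7 and 39.7 against 79.3 and 67.9 CPM. The part of these cells in the members' values was not tested.

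When libraries were scaled by the geometric mean of the limb mesenchyme markers, the median of all genes moved up by 0.44 (log2). On that scale Alpl was at 1.40, Msx2 at 0.67, Twist1 at 0.60, Runx2 at 0.34, Sp7 at 0.26, Dlx5 at 0.11 and Dlx6 at −0.62. Dlx5, Runx2 and Sp7 thus changed sign, and of the 7 members Dlx6 alone was below 0. This scaling shifts all genes nearly alike, so the members had to keep their places relative to the median of all genes. Alpl was at 0.99 and Dlx6 at −1.04 from it, beside 0.99 and −1.03 with the usual scaling. On this scale 0 of 7 members passed adjustment, and the smallest adjusted p in edgeR were 0.0658 for Msx2 and 0.0696 for Alpl. The shift also left 5936 of all 19987 genes with an unadjusted p under 0.05 in edgeR, against 2096 with the usual scaling.

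**Figure D5:**
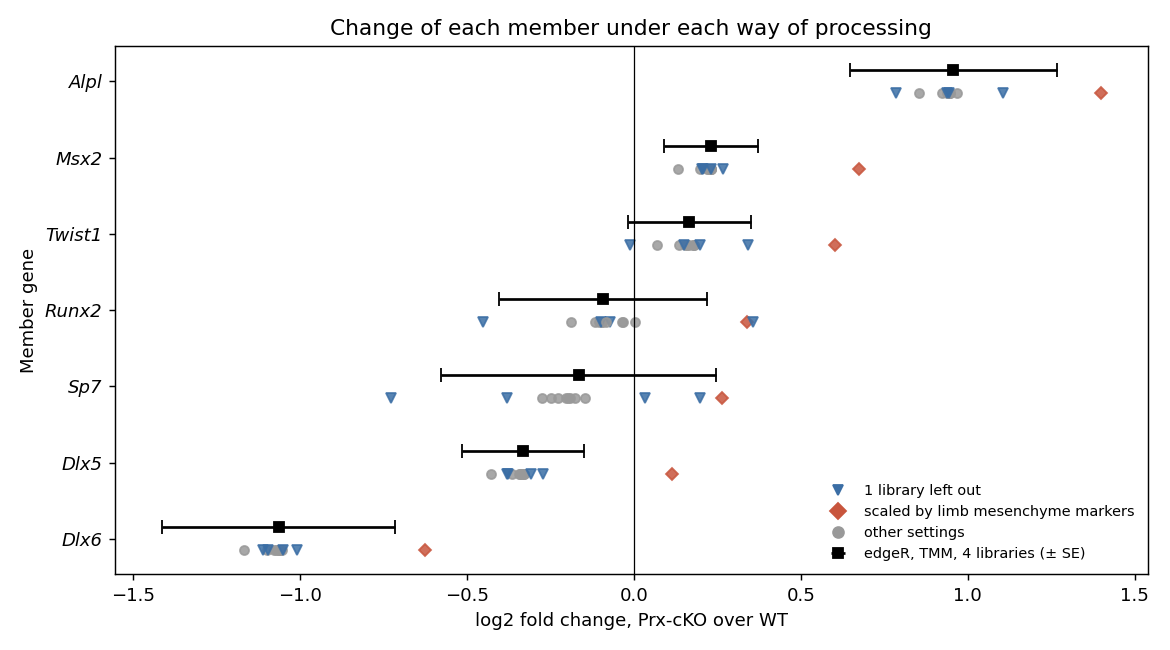
Log2 fold change of Prx-cKO over WT (horizontal axis) for each member with its SE (black squares), with 1 library left out (blue triangles), scaled by limb mesenchyme markers (red diamonds) and under the remaining settings (grey circles). Alpl and Msx2 stay above 0 and Dlx6 below 0 in all of these, while Runx2, Sp7, Dlx5 and Twist1 appear on both sides.

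The members also differed from each other in how they varied across the 4 libraries. Profiles of log2 CPM, each centred on its own mean, were compared by Euclidean distance. Msx2 and Twist1 were the closest members (0.28), followed by Runx2 and Twist1 (0.39), and Alpl and Dlx6 were the farthest apart (1.99). Runx2 and Sp7 were 0.76 apart and Dlx5 and Dlx6 0.72. With 4 libraries these distances are descriptions only.

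The most similar genes were then sought among those averaging 5 CPM or more. For Runx2 they were Morn2, Med31 and Spout1 (0.05 to 0.09), which shared its high WT replicate 1 and low WT replicate 2. For Alpl they were Uap1l1, Mthfd2 and Btbd19 (0.05 to 0.08). Mthfd2, a mitochondrial folate enzyme, had 39.0 and 36.3 CPM in the WT libraries and 64.6 and 76.3 CPM in the Prx-cKO libraries. For Dlx6 they were mt-Te, Tox and Zfr2 (0.08 to 0.14), and for Sp7 they were Urm1, Prom1 and Nsd3 (0.15 to 0.22). Amigo2, Nusap1 and Cog5 were nearest to Dlx5, Rbm22, Ube2f and Cnot11 to Msx2, and Atp5f1, Haus3 and Tacc2 to Twist1, all at 0.02 to 0.03.

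The members were also read in the 8 culture libraries titled OC. The cultures were grown from marrow cells of WT and LysM-cKO mice (Impdh2 deleted in the myeloid lineage) and are titled R40D3 or R0D3. The cultures came as counts in 2 other tables and were scaled together, apart from the limbs, so these levels are given for themselves and compared with no forelimb value. Runx2 was at 4.25 to 7.22 CPM (median 5.42), the most abundant of the 7 in CPM. Alpl was at 0.431 to 2.80 CPM, Twist1 at 0.424 to 2.21 CPM, Sp7 at 0.431 to 1.62 CPM and Dlx5 at 0.185 to 0.667 CPM. Dlx6 and Msx2 were at or under 3 counts in 7 of the 8 libraries each. The mesenchyme gene Prrx1 was at 9.43 to 27.3 CPM in the same cultures. Acp5, an osteoclast gene, was at 2854 to 9379 CPM in the R40D3 libraries but at 12.4 to 15.8 CPM in the R0D3 libraries. LysM-cKO R40D3 replicate 2 was the lowest library for Runx2, Sp7, Alpl, Dlx5 and Prrx1, with 69, 7, 7, 3 and 153 counts.

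At R40D3, 4 of the 5 members that passed the filter on low counts lay below both WT libraries in both LysM-cKO libraries, as 18.9% of 14030 genes did, and 0 lay above, as 19.7% did. Runx2 was at 5.29 and 4.25 CPM in LysM-cKO against 5.44 and 5.86 CPM in WT. Sp7 was at 0.688 and 0.431 against 0.889 and 1.10 CPM, Alpl at 1.38 and 0.431 against 1.94 and 1.95 CPM, and Dlx5 at 0.264 and 0.185 against 0.575 and 0.428 CPM. These rest on 3 to 104 counts per library, and no test was run. Prrx1, which is not a member, lay below as well, at 21.7 and 9.43 against 27.3 and 23.5 CPM, so the pattern was not particular to the members. At R0D3, Alpl alone lay below, at 1.78 and 1.64 against 2.80 and 2.61 CPM, as 14.8% of genes did, and 0 members lay above, as 17.5% did.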

How the data were processed

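The authors deposited whole-number raw counts for Ensembl genes, with the 4 forelimb libraries in 1 table and the 8 culture libraries in 2. FastQC 0.11.2, Trimmomatic 0.36, HISAT2 2.1.0 and DESeq2 1.12.4 and the build GRCm38 are named in the submitters' processing notes. The counting tool, annotation and use of strand are not given in the sources used here. Symbols matched 99.6% of forelimb identifiers, and positions and exon lengths come from GENCODE M21 (GRCm38).

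Genes were kept by filterByExpr (edgeR 4.0.16), libraries were scaled by TMM, and the 4 forelimb libraries were fitted without covariates by the quasi-likelihood test (legacy = FALSE), two-sided, with Benjamini-Hochberg adjustment over all genes and calls at 0.05. The standard error is the absolute log2 fold change over the square root of F. CPM uses the scaled library sizes. Alternatives included DESeq2 1.42.0 and limma-voom (limma 3.58.1). The script was tested on simulated counts. Replicates of each genotype differed by more than sampling noise (chi-square per degree of freedom of 146 and 49.5).

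The members, lists and alternatives were chosen with earlier results of these data known. The text names the 7 members and up to 5 genes per list with an unadjusted p under 0.05 by smallest p; Impdh2, Prrx1, Sox9 and Fgf8; and the 3 genes of nearest profile per member, leaving out Gm-number and Rik symbols. Where a list had more such genes, its counts stand for them. Cbfb, Id1, Id2, Id3, Bglap, Ibsp, Mepe, Col1a1, Phex, Ifitm5, Spp1, Meis1, Meis2, Acp5 and the antisense genes were added after their values were seen. Prrx2, Twist2 and Col3a1 were added likewise.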

Additional observations from a re-analysis of the deposited data

How the results depend on the processing

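Of 19987 genes, 0 were called in edgeR. The count was 4 with scaling by limb mesenchyme markers (Ccng1, Pcdhga1, Ptprv and Cdkn1a, all higher and chosen after their values were seen), 301 with DESeq2, 1 with library sex as a covariate (Gm45717, likewise), and from 0 to 605 with a library removed (605 without WT replicate 1, 104 without WT replicate 2). It was 0 under the other alternatives, including the replicate block. No member was called under any of 13 alternatives or of 1 chosen after seeing the data. Same-numbered libraries deviated together (r = 0.26 across genes), but the labels do not say what the numbers share. Members changed sign as follows. Runx2 was at 0.34 with mesenchyme scaling and 0.0048 in limma-voom, and ran from −0.45 to 0.36 with a library removed. Sp7 was at 0.26 with mesenchyme scaling and ran from −0.73 to 0.20 with a library removed. Dlx5 was at 0.11 with mesenchyme scaling, and Twist1 ran from −0.011 to 0.34 with a library removed. Mesenchyme scaling moved the median of all genes by 0.44, which carried Runx2, Sp7 and Dlx5 past 0. A shift of all genes must leave values relative to that median nearly unchanged. They were −0.07, −0.15 and −0.30, beside −0.06, −0.14 and −0.30 with the usual scaling. For limma-voom and the removed libraries the cause was not tested. Alpl, Dlx6 and Msx2 kept their sign under every alternative run. With library sex as a covariate, Alpl was at 0.94 and Dlx6 at −1.07, 0 members had an unadjusted p under 0.05, and 1039 of all genes did, against 2096 without it. Over the alternatives the edgeR, DESeq2 or limma adjusted p ran from 0.0696 to 1.0 for Alpl and from 0.234 to 1.0 for Dlx6. Sox9 was called with DESeq2 and without either WT library, and Prrx1 without WT replicate 1.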
